A study of Mus musculus with 12 samples.

Results

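The 8 genes described here, Tap1, Tap2, Tapbp, Tapbpl, Erap1, Calr, Canx and Pdia3, carry out peptide transport and loading for MHC class I. They were chosen by gene symbol in the platform annotation and not by a cut on a measured value, but with earlier results of these data known. All 8 of the 8 symbols were found, on 14 of the 45281 probes of an Illumina mouse array. Hearts of untreated mice of mixed C57BL6/129Sv background were measured on 12 arrays, 2 for each of 6 genotypes. The genotypes were Trex+/+ STING+/+, Trex+/+ STING+/-, Trex+/+ STING-/-, Trex-/- STING+/+, Trex-/- STING+/- and Trex-/- STING-/-, in which Trex is Trex1, an exonuclease that degrades DNA in the cytosol, and STING (gene Sting1) relays the sensing of cytosolic DNA to the induction of type I interferon. Both deficiencies are carried by the whole animal as far as the labels say, no age is given in the labels, and for 7 of the 12 samples a free-text description gives another STING genotype than the title, source and genotype labels used here. Nothing in the labels says that both samples of a genotype are separate animals, so p-values rest on the spread between these samples, which may be technical.

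MHC class I molecules show fragments of a cell's own and foreign proteins to cytotoxic T cells. The proteasome makes the peptides, the transporter formed by Tap1 and Tap2 pumps them into the endoplasmic reticulum (ER), Erap1 trims them there, and a loading complex fits them into the groove of the heavy chain. In that complex tapasin, encoded by Tapbp, bridges the transporter and the heavy chain, Pdia3 (ERp57) is the disulfide-linked partner of tapasin, and calreticulin (Calr) and calnexin (Canx) are lectin chaperones of glycoproteins. Tapbpl encodes the tapasin-related protein TAPBPR, which edits the bound peptides outside the complex, as shown for the human protein. Interferons are known to induce the transporter, tapasin and the heavy chains, whereas the lectin chaperones and Pdia3 serve glycoprotein folding in all cells.

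Values are normalized log2 signals, on which a difference of 1 is a doubling, and a probe counts as detected where its detection p-value was under 0.05. Of the 14 probes of these genes, 9 were detected on at least 2 arrays, and 7 of the 8 genes could be tested. The probe of Canx (ILMN_2632083) was detected on 0 of 12 arrays, with log2 signals of 4.32 to 4.65, so calnexin was not measured and no difference is given for it. The probe with the highest mean signal stands for each gene, and group means were compared with limma over all 15561 features that passed the filter, with Benjamini-Hochberg adjustment over all of them and an adjusted p under 0.05 as the threshold.

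The targeted genes and a few libraries bear on what follows. The Trex1 probe ILMN_2509737 gave 7.37 to 8.16 on the 6 Trex+/+ arrays and 6.79 to 7.30 on 5 Trex-/- arrays, but 7.84 on the library labelled Trex-/- STING+/+ replicate 2, which lies within the Trex+/+ range. The Sting1 probe gave 7.03 and 6.94 on Trex-/- STING+/+, 4.79 to 5.75 on the other STING+/+ and STING+/- arrays, and 4.67 to 5.02 on the 4 STING-/- arrays, with 1 of these 4 detected. The library labelled Trex-/- STING+/+ replicate 2 and Trex+/+ STING+/- replicate 1 also stood apart by a low signal of the probe ILMN_2615855 of Hnrnpa2b1, an RNA-binding protein, at 5.91 and 8.47 against 10.92 to 11.63 on the other 10 arrays. They are called the low arrays for that probe only: another Hnrnpa2b1 probe, ILMN_2771074, gave 7.30 and 8.37 on them against 7.28 to 8.28 on the other 10, the first within their range and the second above it. Xist was detected on 4 arrays, both of Trex+/+ STING+/+, the library labelled Trex-/- STING+/+ replicate 2 and Trex+/+ STING-/- replicate 1. All 7 measured cardiomyocyte markers were detected on every array.

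Promoter windows of 250 bases before to 50 bases after the annotated start were taken from RefSeq (GRCm38.p6), whose table held a window for 6 of the 8 genes; Tap2 and Tapbpl were not among them. Those of Tap1, Erap1 and Calr are shown because Tap1 has the largest difference of the 7 tested genes between Trex-/- and Trex+/+ hearts on STING+/+, and the windows of Erap1 and Calr, which did not pass the threshold with all 12 arrays, hold a match to a searched motif. Capitals mark the matches, and the coordinates are chr17:34187306-34187605 on the plus strand, chr13:74639603-74639902 on the plus strand and chr8:84846882-84847181 on the minus strand.
Tap1: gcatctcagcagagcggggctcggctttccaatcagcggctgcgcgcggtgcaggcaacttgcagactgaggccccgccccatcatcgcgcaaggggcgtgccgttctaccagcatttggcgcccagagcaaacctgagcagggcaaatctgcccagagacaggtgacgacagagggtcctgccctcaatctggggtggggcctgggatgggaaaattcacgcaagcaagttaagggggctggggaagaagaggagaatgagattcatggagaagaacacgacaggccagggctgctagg
Erap1: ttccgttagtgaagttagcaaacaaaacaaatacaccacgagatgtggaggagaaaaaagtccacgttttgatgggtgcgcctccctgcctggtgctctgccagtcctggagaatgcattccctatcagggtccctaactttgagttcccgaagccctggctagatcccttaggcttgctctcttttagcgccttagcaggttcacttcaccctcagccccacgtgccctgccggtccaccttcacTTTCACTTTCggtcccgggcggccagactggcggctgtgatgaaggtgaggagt
Calr: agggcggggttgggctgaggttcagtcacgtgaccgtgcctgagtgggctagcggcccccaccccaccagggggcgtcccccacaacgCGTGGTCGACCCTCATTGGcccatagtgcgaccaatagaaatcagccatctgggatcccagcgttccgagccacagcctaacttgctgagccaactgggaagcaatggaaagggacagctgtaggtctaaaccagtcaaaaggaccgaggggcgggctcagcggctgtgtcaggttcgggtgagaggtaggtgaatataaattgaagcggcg
The motifs searched on both strands were the interferon-stimulated response element GAAANNGAAA, the gamma-activated site TTCNNNGAA, the NF-kB site GGGAANTCCC and the ER stress response element, CCAAT and CCACG with 9 bases between. In the 32851 windows of all genes they matched in 3.44%, 8.3%, 0.359% and 0.119%, respectively. Among the 6 windows, the interferon element matched in Erap1 alone, at bases 247 to 256 of the window on the minus strand, and the ER stress element matched in Calr (bases 89 to 107, minus strand) and in Canx, while Tap1, Tapbp and Pdia3 held none of the 4. The Tap1 window shares 275 of its bases with that of Psmb9, an immunoproteasome subunit transcribed in the opposite direction, and the annotated starts lie 226 bases apart. The Erap1 gene is annotated from chr13:74639573, upstream of its whole window, so that window surrounds a start within the annotated gene. A match is a description of the letters and was not tested as a site.

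The main question was how the loss of Trex1 changes these genes when STING is intact. In Trex-/- STING+/+ hearts 4 of the 7 tested genes were higher than in Trex+/+ STING+/+ hearts and 0 were lower, against 11.8% of all features higher. They were both subunits of the peptide transporter, Tap1 and Tap2, tapasin (Tapbp) and its relative Tapbpl. The median difference over the 7 genes was 0.98, against -0.04 over all features. Erap1, Calr and Pdia3 did not pass the test.

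Both transporter subunits rose. Tap1 had log2 signals of 4.77 and 5.22 on Trex+/+ STING+/+, 4.89 and 4.82 on Trex+/+ STING+/-, 5.16 and 4.63 on Trex+/+ STING-/-, 8.78 and 8.66 on Trex-/- STING+/+, 7.93 and 6.74 on Trex-/- STING+/-, and 4.73 and 4.87 on Trex-/- STING-/-. The 4 Trex-/- arrays with an intact STING allele lie above the other 8, and of those 8 the probe was detected on 2, so its level there is near the limit of the array. On STING+/+ the difference was 3.72 ± 0.35 (log2, SE, n = 2 and 2), a 13.2-fold rise with a limma adjusted p of 9.72e-05. Without background correction, where the Trex+/+ STING+/+ arrays read 6.44 and 6.62, the log2 difference of Tap1 was 2.38 (adjusted p = 0.000206).

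Tap2 was detected on all 12 arrays. Its log2 signals were 8.75 and 8.76 on Trex+/+ STING+/+, 8.09 and 8.36 on Trex+/+ STING+/-, 8.54 and 8.35 on Trex+/+ STING-/-, 10.92 and 10.01 on Trex-/- STING+/+, 9.76 and 9.34 on Trex-/- STING+/-, and 8.35 and 8.46 on Trex-/- STING-/-. Again the 4 Trex-/- arrays with STING lie above the other 8, and the 2 arrays of Trex-/- STING+/+ differ more than those of any other genotype. The rise on STING+/+ was 1.71 ± 0.29 (log2, SE, n = 2 and 2), or 3.27-fold, with a limma adjusted p of 0.00236. Without the library labelled Trex-/- STING+/+ replicate 2 it was 2.16 (adjusted p = 0.000597), and without replicate 1 it was 1.25 (adjusted p = 0.00436).

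The peptide editor Tapbpl had the same high groups. Its probe ILMN_2974611 had log2 signals of 6.56 and 6.63 on Trex+/+ STING+/+, 6.75 and 6.27 on Trex+/+ STING+/-, 6.47 and 6.72 on Trex+/+ STING-/-, 9.10 and 8.91 on Trex-/- STING+/+, 7.93 and 7.41 on Trex-/- STING+/-, and 6.59 and 6.94 on Trex-/- STING-/-. The groups Trex-/- STING+/+ and Trex-/- STING+/- each lie apart from all others, and the remaining 4 overlap. The rise on STING+/+ was 2.41 ± 0.25 (log2, SE, n = 2 and 2), or 5.31-fold, with a limma adjusted p of 0.00016. Another Tapbpl probe, ILMN_2606502, was detected on 2 arrays, at 6.37 on Trex-/- STING+/+ replicate 1 and 5.10 on Trex-/- STING+/- replicate 1. On the library labelled Trex-/- STING+/+ replicate 2, where ILMN_2974611 read 8.91, ILMN_2606502 was at 4.34 and not detected, and its difference on STING+/+ was 0.87 ± 0.49 (limma adjusted p = 0.244). The third Tapbpl probe, ILMN_2606498, was detected on 1 array and not tested, at 5.38 on Trex-/- STING+/+ replicate 1 and 4.33 to 4.66 on the other 11.

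The call for tapasin lies at the edge of the threshold. The probe that stands for Tapbp, ILMN_3155492, had log2 signals of 7.45 and 7.73 on Trex+/+ STING+/+, 7.70 and 7.61 on Trex+/+ STING+/-, 7.58 and 7.54 on Trex+/+ STING-/-, 9.01 and 8.14 on Trex-/- STING+/+, 8.26 and 8.23 on Trex-/- STING+/-, and 7.17 and 7.94 on Trex-/- STING-/-. Trex-/- STING+/+ and Trex-/- STING+/- overlap with each other and lie above the other 8 arrays. The rise on STING+/+ was 0.98 ± 0.31 (log2, SE, n = 2 and 2), or 1.97-fold, with a limma adjusted p of 0.0498, and it stayed past the threshold in 8 of 23 alternatives. With the presence of Xist as a covariate it was 0.77 (adjusted p = 0.129), and without Trex-/- STING+/+ replicate 1 it was 0.54 (adjusted p = 0.198). A second Tapbp probe, ILMN_1226819, annotated to another transcript of the gene, gave 9.48 and 7.39 on the same Trex-/- STING+/+ arrays against 7.46 and 7.78 on Trex+/+ STING+/+, so that these groups overlap, with a difference of 0.81 ± 0.57 (limma adjusted p = 0.347).

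**Figure D1:**
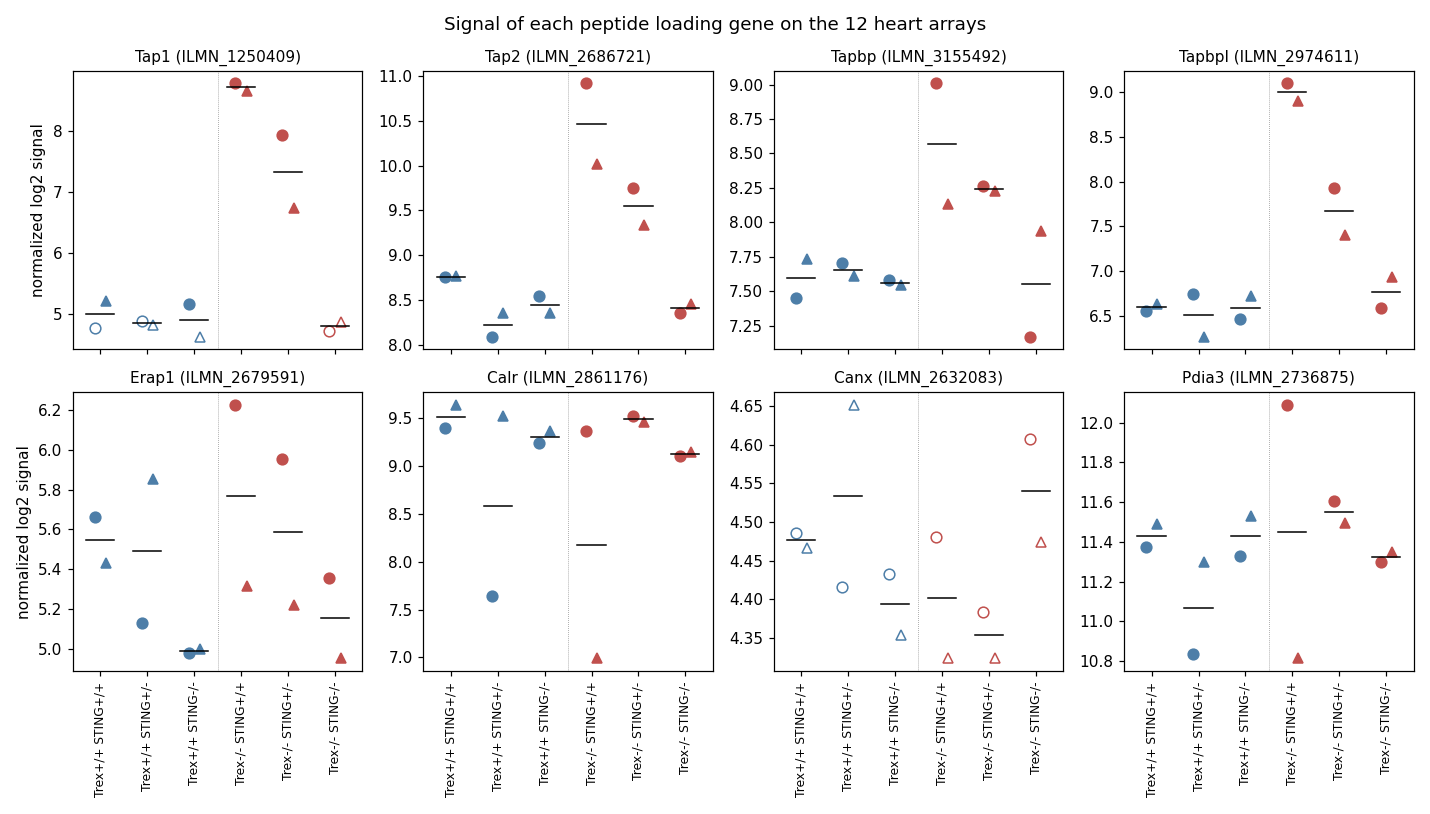
Normalized log2 signal (y axis, a scale of its own in each panel) of the 8 genes on the 12 arrays by genotype (x axis), for the probe that stands for each gene and the single probe of Canx. Blue is Trex+/+ and red Trex-/-, circles are replicate 1 and triangles replicate 2, open symbols are arrays without detection, and bars are means of 2; Tap1, Tap2, Tapbp and Tapbpl are highest on Trex-/- STING+/+, Calr has 2 low arrays, and Canx is open throughout.

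The trimming enzyme Erap1 was dim and did not differ beyond the spread between arrays. Its log2 signals were 5.66 and 5.43 on Trex+/+ STING+/+, 5.13 and 5.85 on Trex+/+ STING+/-, 4.98 and 5.00 on Trex+/+ STING-/-, 6.23 and 5.31 on Trex-/- STING+/+, 5.95 and 5.22 on Trex-/- STING+/-, and 5.36 and 4.95 on Trex-/- STING-/-. The replicate 1 arrays of Trex-/- STING+/+ and Trex-/- STING+/- are the highest of the 12 and their partners lie within the range of the other groups. The difference on STING+/+ was 0.22 ± 0.36 (log2, SE, n = 2 and 2; limma adjusted p = 0.71). The other Erap1 probes, ILMN_1213653 and ILMN_1222158, were detected on 1 and 0 arrays, at 4.39 to 4.86 and 4.36 to 4.84, and were not tested.

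Calreticulin did not pass the test, and 2 libraries stood apart from the rest. The Calr probe ILMN_2861176 gave log2 signals of 9.40 and 9.64 on Trex+/+ STING+/+, 7.64 and 9.53 on Trex+/+ STING+/-, 9.24 and 9.37 on Trex+/+ STING-/-, 9.37 and 6.99 on Trex-/- STING+/+, 9.53 and 9.46 on Trex-/- STING+/-, and 9.11 and 9.15 on Trex-/- STING-/-. The 2 low values are on the low arrays of probe ILMN_2615855, 1.74 and 2.39 below the median of the other 10, and those 10 lie between 9.11 and 9.64 in every genotype. The difference on STING+/+ was -1.34 ± 0.70 (log2, SE, n = 2 and 2; limma adjusted p = 0.203). Without both low arrays it was -0.15 (adjusted p = 0.657), and with the low Trex-/- STING+/+ array alone, that is without replicate 1, it was -2.53 (adjusted p = 0.0104). A second Calr probe, ILMN_1233820, was detected on 1 array and not tested, with log2 signals of 4.33 to 4.96.

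Pdia3, the oxidoreductase of the loading complex, was detected on all 12 arrays. Its log2 signals were 11.37 and 11.49 on Trex+/+ STING+/+, 10.83 and 11.30 on Trex+/+ STING+/-, 11.33 and 11.53 on Trex+/+ STING-/-, 12.09 and 10.81 on Trex-/- STING+/+, 11.61 and 11.49 on Trex-/- STING+/-, and 11.30 and 11.35 on Trex-/- STING-/-. Trex-/- STING+/+ holds both the highest and the lowest of the 12 values, and the lowest 2 are again the low arrays of probe ILMN_2615855. The difference on STING+/+ was 0.02 ± 0.35 (log2, SE, n = 2 and 2; limma adjusted p = 0.978). Without both low arrays it was 0.66 (adjusted p = 0.0497), on 1 array of Trex-/- STING+/+ that is assumed to vary like the other groups.

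The probes of these genes differed in how they read on the 2 low arrays of probe ILMN_2615855. Calr, Pdia3 and Tapbp probe ILMN_1226819 were each below all of the other 10 arrays on both, whereas Tapbp probe ILMN_3155492 lay 0.03 and 0.47 above their median. Over all features, 8.37% were below the other 10 arrays on both, and 1.92% were at least 1 log2 unit below their median on both. Whether the quality of these libraries plays a part in the values of Calr, Pdia3 and Tapbp was not tested. Tap1, Tap2 and Tapbpl remained past the threshold on STING+/+ without both arrays, with differences of 3.78, 2.16 and 2.51 (adjusted p = 0.00208, 0.0012 and 0.0014).

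**Figure D2:**
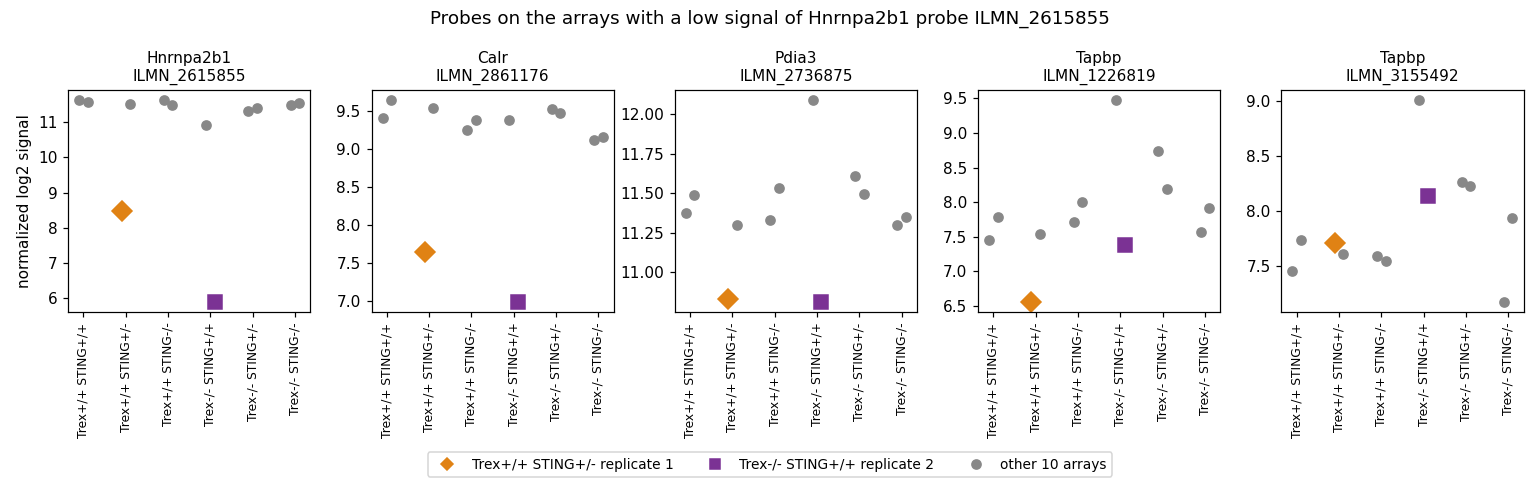
Normalized log2 signal (y axis, a scale of its own in each panel) of Hnrnpa2b1 probe ILMN_2615855, Calr, Pdia3 and both Tapbp probes on the 12 arrays by genotype (x axis). The orange diamond is Trex+/+ STING+/- replicate 1, the purple square the library labelled Trex-/- STING+/+ replicate 2 and grey circles the other 10 arrays; both marked arrays are the lowest for each probe but Tapbp ILMN_3155492.

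The next question was how far the difference depends on STING. With 1 copy of STING, 1 of the 7 genes was higher in Trex-/- than in Trex+/+ hearts, against 1.14% of all features. Tap1 rose by 2.48 ± 0.35 (log2, SE, n = 2 and 2), at least 4.79-fold since the probe was not detected on either Trex+/+ STING+/- array, with a limma adjusted p of 0.00829. Tap2, Tapbpl and Tapbp had differences of 1.32 ± 0.29, 1.16 ± 0.25 and 0.59 ± 0.31 (limma adjusted p = 0.064, 0.064 and 0.518), which did not pass. The Tap1 call was lost without either Trex+/+ STING+/- array (adjusted p = 0.0646 without replicate 1 and 0.0756 without replicate 2), and Tap2 passed without either Trex-/- STING+/+ array (adjusted p = 0.0115 for both). Tapbpl passed without Trex-/- STING+/- replicate 2, with 1.42 (adjusted p = 0.0446).

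Without STING no difference between the Trex genotypes passed the test. In limma 0 of the 7 genes were called and 0 had an unadjusted p under 0.05, against 0% of all features higher and 268 features at an unadjusted p under 0.05. Differences of Tap1, Tap2, Tapbp and Tapbpl were -0.10 ± 0.35, -0.04 ± 0.29, -0.01 ± 0.31 and 0.17 ± 0.25 (log2, SE, n = 2 and 2). Erap1, Calr and Pdia3 gave 0.17 ± 0.36, -0.18 ± 0.70 and -0.11 ± 0.35 on the same scale.

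The difference between the Trex effects was tested directly as an interaction. For STING+/+ against STING-/-, 3 of the 7 genes passed, against 6.4% of all features higher. The effect on Tap1 was larger by 3.82 ± 0.50 (log2, SE; limma adjusted p = 0.00181), on Tapbpl by 2.24 ± 0.35 (adjusted p = 0.00428) and on Tap2 by 1.75 ± 0.41 (adjusted p = 0.0243), while Tapbp gave 0.99 ± 0.44 (adjusted p = 0.201). The Tap2 call was lost without any single array of Trex+/+ STING+/+, Trex+/+ STING-/- or Trex-/- STING-/- (adjusted p = 0.0504 to 0.0896), and Tapbp passed without the library labelled Trex-/- STING+/+ replicate 2, with 1.43 (adjusted p = 0.0498). For STING+/+ against STING+/-, 0 of 7 passed in limma, against 1.39% of all features higher. At an unadjusted p under 0.05 there were 3 of 7, against 3183 of 15561 features; the 3 were Calr at -2.25 ± 0.99 (adjusted p = 0.237), Tap1 and Tapbpl, of which Tap1 and Tapbpl gave 1.24 ± 0.50 and 1.25 ± 0.35 (adjusted p = 0.2 and 0.101). For STING+/- against STING-/-, 0 of 7 passed in limma, against 0.244% of all features higher. At an unadjusted p under 0.05 there were 3 of 7, Tap1, Tap2 and Tapbpl, against 1177 of 15561 features; Tap1 gave 2.58 ± 0.50 (adjusted p = 0.0863), and 3.17 (adjusted p = 0.0091) without Trex-/- STING+/- replicate 2.

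**Figure D3:**
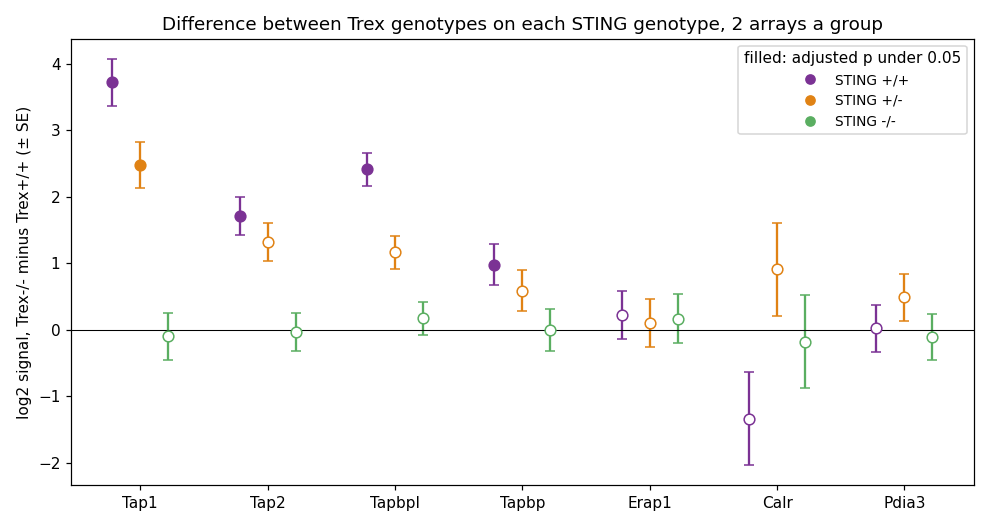
Log2 difference between Trex-/- and Trex+/+ hearts (y axis, ± SE from the limma fit) for the 7 tested genes (x axis) on STING+/+ (purple), STING+/- (orange) and STING-/- (green), 2 arrays a group. Filled points passed an adjusted p under 0.05; Tap1 goes from 3.72 over 2.48 to -0.10, and Calr has the widest errors.

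Within Trex-/- hearts the STING genotypes were compared as well, in the same arrays as above. With STING absent instead of intact, 4 of the 7 genes were lower, against 12.7% of all features. Tap1 fell by 3.92 ± 0.35 (log2, SE, n = 2 and 2), at least 13.5-fold, with a limma adjusted p of 6.23e-05, Tapbpl fell by 2.24 ± 0.25 (adjusted p = 0.000202), Tap2 fell by 2.06 ± 0.29 (adjusted p = 0.000763) and Tapbp fell by 1.02 ± 0.31 (adjusted p = 0.0402). The Tapbp call held in 9 of 23 alternatives and was lost without Trex-/- STING+/+ replicate 1 (-0.58, adjusted p = 0.163) and without Trex-/- STING-/- replicate 1 (-0.64, adjusted p = 0.268). Calr and Pdia3 did not pass, at 0.95 ± 0.70 and -0.13 ± 0.35 (limma adjusted p = 0.362 and 0.831). Without Trex-/- STING+/+ replicate 1, which leaves a low array of probe ILMN_2615855 as the only one of that group, Calr gave 2.14. Without both low arrays Pdia3 gave -0.77, on 1 array of Trex-/- STING+/+.

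With 1 instead of 2 copies of STING in Trex-/- hearts, 2 of the 7 genes were lower, against 6.75% of all features. Tapbpl fell by 1.34 ± 0.25 (log2, SE, n = 2 and 2; limma adjusted p = 0.0102) and Tap1 fell by 1.38 ± 0.35 (adjusted p = 0.0326), while Tap2 gave -0.92 ± 0.29 (adjusted p = 0.068). The Tap1 call was lost without either Trex-/- STING+/+ array (adjusted p = 0.0543 without replicate 1 and 0.0916 without replicate 2), and both calls were lost without Trex-/- STING+/- replicate 2 (-0.79 for Tap1 and -1.07 for Tapbpl, adjusted p = 0.213 and 0.1). Without the library labelled Trex-/- STING+/+ replicate 2, Tap2 gave -1.37. Without replicate 1, Calr and Pdia3 gave 2.50 and 0.74. The only Trex-/- STING+/+ array is then a low array of probe ILMN_2615855, on which both read below the other 10 arrays. Between 1 copy and none, 1 of the 7 genes was lower, against 1.21% of all features. That gene was Tap1, which fell by 2.54 ± 0.35, at least 5.20-fold (limma adjusted p = 0.00585), a call lost without Trex-/- STING-/- replicate 2 (adjusted p = 0.0546).

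In Trex+/+ hearts the genotype at STING made no difference that passed. Xist was detected on both Trex+/+ STING+/+ arrays and on neither Trex+/+ STING+/- array. The presence of Xist and the STING genotype thus cannot be told apart between these groups. For STING+/- against STING+/+, limma called 0 of the 7 genes, against 0.0129% of all features called in either direction, and 0 of 7 had an unadjusted p under 0.05, against 541 of 15561 features. For STING-/- against STING+/+ it called 0, against 0.0578% of all features, and 0 of 7 had an unadjusted p under 0.05, against 1459 of 15561 features. Tap1 gave -0.14 ± 0.35 and -0.10 ± 0.35 in these comparisons and Tap2 gave -0.53 ± 0.29 and -0.31 ± 0.29 (log2, SE, n = 2 and 2).

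The genes before and after peptide loading in the same pathway give the setting of these values, all for Trex-/- against Trex+/+ on STING+/+. In this comparison 11.8% of all features were higher and 9.93% lower. Of 20 listed heavy chain genes with B2m and the activator Nlrc5, 14 were measured. H2-Q2, H2-Q10, H2-T3 and H2-Bl were on the array but did not pass the filter. Of the 14 measured, 12 were higher and 0 lower, with a median of 3.89. H2-T23 and H2-T10 rose by 4.10 ± 0.37 and 4.16 ± 0.33 (log2, SE; limma adjusted p = 8.1e-05 and 4.05e-05), and Nlrc5 rose by 4.21 ± 0.33 (adjusted p = 4.19e-05). On Trex-/- STING+/+ arrays 13 or 14 of the 14 were detected, against 10 or 11 on Trex+/+ STING+/+ arrays. The filter keeps probes detected on 2 or more arrays, so it favoured genes high in Trex-/- STING+/+ and Trex-/- STING+/-. Of the 5 immunoproteasome and PA28 genes 4 were higher, with a median of 2.23; Psmb9, the divergent neighbour of Tap1, rose by 4.10 ± 0.33 (adjusted p = 4.22e-05), Psmb8 by 3.10 ± 0.58 (adjusted p = 0.00412), Psmb10 by 2.23 ± 0.19 (adjusted p = 5.28e-05) and the PA28 subunit Psme1 by 0.83 ± 0.21 (adjusted p = 0.0176). The constitutive catalytic subunits that the immunoproteasome subunits replace were not called, with 0 of 3 and differences of -0.14 ± 0.19 for Psmb6 and -0.33 ± 0.21 for Psmb7. Of 6 measured cytosolic and endosomal peptidases 1 was higher, Dpp3 by 1.05 ± 0.21 (adjusted p = 0.00662).

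General ER genes, the class of Calr and Pdia3, are set beside them here, in a comparison in which 11.8% of all features were higher and 9.93% lower. Of 19 measured ER folding factors 1 was higher and 1 lower, with a median of 0.11: Sdf2l1 rose by 0.97 ± 0.29 (log2, SE; limma adjusted p = 0.037) and Uggt2 fell by 0.75 ± 0.23 (adjusted p = 0.0442). Of 17 translocon and oligosaccharyltransferase genes 1 was higher, the channel subunit Sec61a1 by 0.72 ± 0.20 (adjusted p = 0.0275), with a median of 0.35. Of 16 unfolded protein response genes 6 were higher and 1 lower, with a median of 0.47; among the 6 were Ddit3, Trib3, Asns and Chac1, which rose by 3.75 ± 0.23, 3.27 ± 0.36, 3.70 ± 0.75 and 2.19 ± 0.31 (adjusted p = 1.79e-05, 0.000209, 0.00643 and 0.000825) and are known as targets of the ATF4 branch. Of 13 measured interferon response genes 8 were higher and 1 lower, with a median of 1.90; Usp18 and Irf7 rose by 6.10 ± 0.36 and 6.03 ± 0.49 (adjusted p = 1.79e-05 and 4.36e-05).

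**Figure D4:**
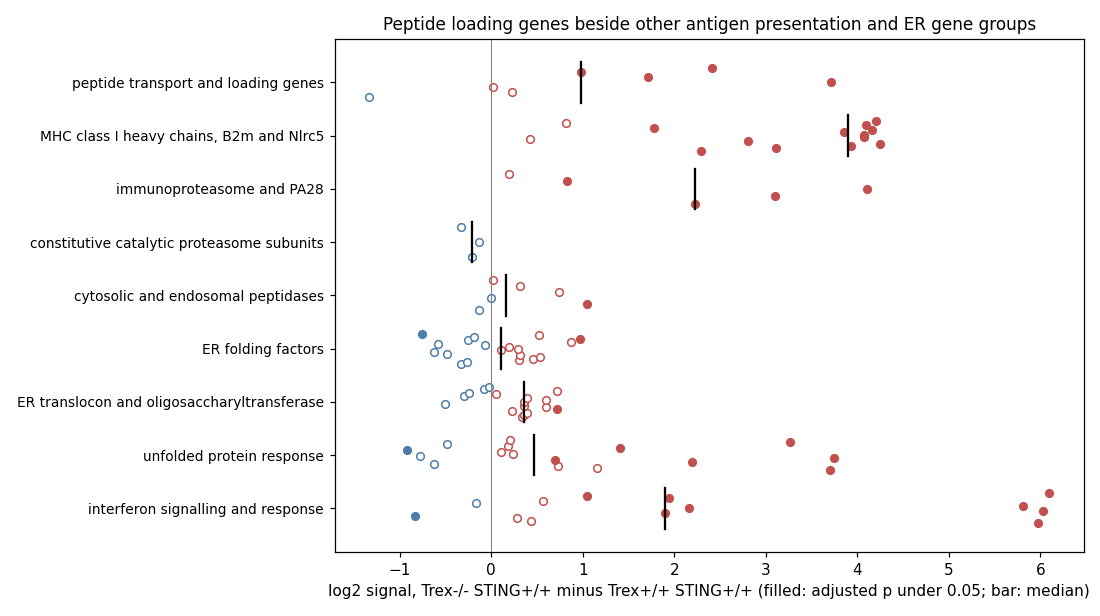
Log2 difference between Trex-/- STING+/+ and Trex+/+ STING+/+ hearts (x axis) for each measured gene of 9 groups (y axis); red is above and blue below 0, filled points passed an adjusted p under 0.05, and black bars are medians. The peptide loading genes have a median of 0.98, between 3.89 for the heavy chains and 0.11 for the ER folding factors.

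Markers of immune cells moved with the same comparison, and in bulk tissue a change in the number of cells of a type and a change in RNA per cell cannot be told apart. Between Trex-/- and Trex+/+ hearts on STING+/+, 11.8% of all features were higher and 9.93% lower. For macrophages and monocytes 7 of 8 measured markers were higher in Trex-/- STING+/+, with Mpeg1 and C1qa up by 4.02 ± 0.45 and 3.37 ± 0.45 (log2, SE; limma adjusted p = 0.000223 and 0.000642). Their summed linear signal was 21143 to 25111 in Trex-/- STING+/+, 9512 to 12503 in Trex-/- STING+/- and 2971 to 6729 in the other 4 groups, and at least 7 of the 8 were detected on every array. Of 10 listed T and NK cell markers 7 were measured, as Cd8a, Cd4 and Gzmb did not pass the filter. Of the 7 measured, 6 were higher, with Nkg7 up by 4.98 ± 0.33 (limma adjusted p = 2.07e-05), and the sums were 3086 to 4330, 523 to 930 and 328 to 510 in the same order. Of these 7 markers, all were detected on Trex-/- STING+/+ arrays and 1 to 3 on arrays outside Trex-/- STING+/+ and Trex-/- STING+/-, where Cd3d, Cd3e and Cd3g were not above background on either Trex+/+ STING+/+ array. The filter keeps probes detected on 2 or more arrays, so it favoured markers high in Trex-/- STING+/+ and Trex-/- STING+/-. Of 7 cardiomyocyte markers 5 were lower, and their sums were 109980 to 122040 in Trex-/- STING+/+ against 144530 to 169370 elsewhere. Endothelial and fibroblast markers had 2 of 5 lower each, with medians of -0.69 and -0.85. The mean log2 signal of the 5 fibroblast markers was 9.63 and 9.11 on Trex-/- STING+/+, against 9.63 and 9.61 on Trex+/+ STING+/+. That mean was thus lower on replicate 2 only. Their summed linear signal was lower on both replicates, at 14594 and 8712 against 23623 and 17975 on Trex+/+ STING+/+. Of 5 listed dendritic cell markers 3 were measured, and all 3 were higher, with a median of 0.92. All 3 were detected on Trex-/- STING+/+ and 1 on every other array, so the filter favoured markers high in that group. The part of these cells in the values of Tap1, Tap2, Tapbp and Tapbpl was not tested.

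Atrial markers set 3 of the 4 STING-/- arrays apart, which touches every comparison with STING-/-. Their summed linear signal over 5 markers was 133000 and 171820 on Trex+/+ STING-/- and 180410 on Trex-/- STING-/- replicate 2, against 33667 on Trex-/- STING-/- replicate 1 and 7792 to 49550 on the 8 arrays with STING. All 5 markers were detected on those 3 arrays, 4 on Trex-/- STING+/- replicate 2 and 2 or 3 on the other 8. As both Trex+/+ STING-/- arrays are among the 3, atrial signal and genotype cannot be told apart in that group. The mean log2 signal of the 5 markers was 10.06 on Trex-/- STING+/- replicate 2, against 6.83 to 7.82 on the 8 arrays with 2 or 3 detected. Comparisons with Trex-/- STING+/- are therefore touched as well. Without that array, STING+/- against +/+ in Trex-/- gave -0.79 for Tap1 and -1.07 for Tapbpl. The summed signal also differed between Trex genotypes with STING present. It was 47377 and 49550 on Trex-/- STING+/+ against 17553 and 17648 on Trex+/+ STING+/+. On STING+/- it was 42212 and 43946 for Trex-/- against 7792 and 8096 for Trex+/+. The part of atrial signal in the values of the peptide loading genes was not tested. In the comparison of STING-/- with STING+/+ within Trex-/-, leaving out Trex-/- STING-/- replicate 2 kept the 4 calls, with log2 differences of -3.99 for Tap1, -2.11 for Tap2, -1.40 for Tapbp and -2.42 for Tapbpl (limma adjusted p = 0.000842, 0.00577, 0.0247 and 0.0014).

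Across the 12 arrays the 4 genes that rose followed each other, given here as a description over arrays that share their genotypes. Pearson's r was 0.955 for Tap1 with Tap2, 0.963 for Tap1 with Tapbpl, 0.938 for Tap2 with Tapbpl, and 0.858 to 0.887 for Tapbp with these. Calr and Pdia3 had r = 0.775 with each other and -0.366 to 0.503 with the 4. The search for similar features left out those without a gene symbol, predicted genes and the genes described here. Among the rest, the most like Tap1 were Phf11a (r = 0.994), the nonclassical heavy chain H2-T23 (0.992) and Samd9l (0.991). The most like Tap2 were the heparan sulfate proteoglycan Sdc3 (0.989), Cd274, the ligand of PD-1 (0.978), and H2-Q8 (0.978). For Tapbpl they were Tlr2 (0.991), the IgG receptor Fcgr1 (0.99) and H2-Q5 (0.989), for Tapbp the RNA-editing enzyme Adar (0.938), Tlr13 (0.917) and Lair1 (0.914), and for Erap1 Dhx32 (0.947), Nrp2 (0.904) and Slc23a2 (0.878). For Calr they were Cr1l (0.977), Rab1b (0.972) and Ppp2r5c (0.97), and for Pdia3 Kif23 (0.958), Msn (0.954) and Rtn4 (0.942).

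Trex-/- STING+/+ holds 1 array with Xist and 1 without, while both arrays of Trex+/+ STING+/+ have it. Both arrays of Trex+/+ STING+/-, of Trex-/- STING+/- and of Trex-/- STING-/- lack it. Probe ILMN_1241001 of Eif2s3y was detected on every array without Xist and on no array with it. With the presence of Xist as a covariate the rises on STING+/+ were 3.82 for Tap1, 1.53 for Tap2 and 2.30 for Tapbpl (limma adjusted p = 0.000505, 0.00851 and 0.000896). The Tapbp call on STING+/+ was lost with this covariate, as given above. The Tap1 call for STING+/- against +/+ in Trex-/- was lost too (-1.28, limma adjusted p = 0.105).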

How the data were processed

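RNA from mouse hearts was labelled as biotinylated cRNA and hybridised to Illumina arrays, per the labels' protocols; the sources used here do not give the scanner. The authors deposited non-normalized intensity values for 45281 probes on 12 arrays. The deposited score beside each carries the heading of a detection p-value but goes up with the signal (rank correlations 0.979 to 0.988), so 1 minus the score was taken as that p-value. A table of log2 values centred on each probe's median, also deposited by the authors, served as an alternative. Its array medians were -0.01 to 0.01, and it correlated at 0.9999 or more with quantile-normalized signals centred in the same way, which gives its scale, centring and direction.

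In R 4.3.3 with limma 3.58.1, signals were corrected and normalized with neqc (offset 16). The filter kept the 22810 probes detected (p under 0.05) on 2 or more arrays, and the probe with the highest mean stood for a gene. This left 15561 features, 12080 with 1 symbol. Of all probes, 34885 had 1 symbol in the platform annotation, 18 several and 10378 none. A model of 6 group means was fitted (lmFit, eBayes, 6 residual degrees of freedom) for 11 comparisons. A fold against a group in which the probe was detected on 0 arrays is a bound, "at least N-fold"; each array of that group then enters with its detection limit (4.83 to 5.13 log2 units) or the probe's signal, whichever is higher. Precision is limited by the number of arrays. The pipeline was tested on simulated data.

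The 8 genes and the gene lists beside them were chosen with earlier results of these data known. Every member and member probe is described. From each list, the rule names the 4 largest differences past the threshold on STING+/+, or, where none passed, the 2 brightest genes; some of these are given only in counts. Alternatives were quantile normalization with no background correction, the authors' values, no filter, a stricter filter (p under 0.01 on 4 arrays), a robust prior with a variance trend, array weights, a fit restricted to the compared groups, the most variable probe per gene, all probes as features, Xist as a covariate, and leaving out each array or both arrays with a low signal of the Hnrnpa2b1 probe ILMN_2615855. Figures were drawn with matplotlib 3.10.9.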

Additional observations from a re-analysis of the deposited data

Results flagged for a closer look

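The effect of Trex1 loss differed between hearts with intact and with absent STING for 3 of the 7 tested genes by a test of the difference itself (limma interaction term). The transporter subunit Tap1 had an effect larger by 3.82 ± 0.50 on STING+/+ (log2, SE; adjusted p = 0.00181), with all 4 arrays of Trex-/- with STING above the other 8. The peptide editor Tapbpl had an effect larger by 2.24 ± 0.35 (limma adjusted p = 0.00428). The transporter subunit Tap2 had an effect larger by 1.75 ± 0.41 (limma adjusted p = 0.0243), a call that held in 17 of 23 alternatives and was lost without any single array of Trex+/+ STING+/+, Trex+/+ STING-/- or Trex-/- STING-/- (adjusted p = 0.0504 to 0.0896). Over all features 6.4% were higher by this test.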

How the results depend on the processing

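For Trex1 KO against WT on STING+/+ and for STING-/- against +/+ in Trex1 KO, Tap1, Tap2 and Tapbpl remained past the threshold in all 23 alternatives run, with adjusted p of at most 0.0468, whereas Tapbp held in 8 and 9 of 23. No called difference changed sign. The number of the 7 genes called on STING+/- was 2 with a variance trend and a robust prior, 2 with array weights, 0 with only the groups compared and 0 without both arrays with a low signal of the Hnrnpa2b1 probe ILMN_2615855, against 1. For STING+/- against +/+ in Trex1 KO it was 1 with no filter, 0 with array weights, 0 with only the groups compared and 1 with Xist as a covariate, against 2. For STING-/- against +/- in Trex1 KO it was 2 with array weights, 0 with only the groups compared and 2 without both low arrays, against 1. For the effect on STING+/+ minus that on STING+/- it was 1 with the authors' processed values, against 0. Leaving out each array in turn gave 3 to 4 calls on STING+/+, 0 to 2 on STING+/-, 0 to 3, 3 to 4 and 0 to 2 for the STING comparisons in Trex1 KO (+/- against +/+, -/- against +/+, -/- against +/-), and 2 to 4, 0 to 2 and 0 to 1 for the differences between effects (+/+ minus -/-, +/+ minus +/-, +/- minus -/-).

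The cause of these changes was not tested, except that fits of only the groups compared and those without an array hold fewer samples. Where an array is left out, the lone sample of its group is assumed to vary like the other groups. Leaving out a single array also moved the percent of all features called, in several comparisons to above its range over the other alternatives. The ranges of calls given for left-out arrays are therefore not set against a fixed share of all features. The percent of all features called in either direction moved in the other alternatives as well. Over the 11 alternatives other than leaving out a single array it was 9.11 to 24.6 on STING+/+ (21.7 as reported), 0.346 to 1.65 on STING+/- (1.27), 0.0386 to 12 for STING+/- against +/+ in Trex1 KO (11), 8.28 to 27.3 for -/- against +/+ (24), 0.373 to 2.47 for -/- against +/- (1.36) and 4.33 to 10.7 for the effect on STING+/+ minus that on STING-/- (9.87). Slide as a block was not run, as the headers give no slide. No paired analysis was possible because the labels give no shared replicate numbers. Canx lies below detection on every array, and Tap1 near it on 8, which limits both.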
